A study of Mus musculus with 6 samples.

Results

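The genes described here are 10 genes of pigment cells and of the retinal pigment epithelium, out of 24346 gene symbols in each table. They comprise 3 melanin enzymes (Tyr, Tyrp1 and Dct), 4 melanosome proteins (Pmel, Mlana, Slc45a2 and Oca2), the regulator Mitf, and 2 further genes of the pigment epithelium (Rpe65 and Ttr). The genes were chosen by symbol and function, with earlier results of these data known, so their differences between genotypes are given as a description and support nothing by themselves. All 10 symbols were present in every table.

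Whole mouse retinas of postnatal day 12 were sequenced with a stranded mRNA kit, and each library has 1 value per gene in FPKM, a count of fragments divided by transcript length and by library size. All 6 libraries come from Nrl-/- mice, a background in which most photoreceptors are cone-like. The 3 control libraries are Panky+/-;Panky-like+/-;Nrl-/-, so the controls also carry 1 mutant copy of each targeted gene, and the 3 triple-deficient libraries are Panky-/-;Panky-like-/-;Nrl-/-. The series' design text describes littermate pairs, but no label ties a replicate number to a litter, and the labels give neither strain nor coat colour.

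The retinal pigment epithelium is the single layer of pigmented cells behind the photoreceptors. It recycles the visual chromophore, takes up shed outer segments and holds melanin in organelles called melanosomes. The layer adjoins the neural retina but is a separate tissue, which is usually removed when a retina is isolated. Melanin is also made in melanocytes of the choroid, which share the melanin enzymes but lack Rpe65. Mitf is a basic helix-loop-helix factor that binds promoters of pigment genes at a sequence known as the M-box. In bulk RNA, fewer cells of a type and less RNA per cell cannot be told apart.

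The M-box is shown first because it is a feature that the 3 melanin enzymes share and that played no part in choosing them. RefSeq promoter windows on GRCm38.p6 were matched for 6 of the 10 genes (Tyr, Tyrp1, Dct, Oca2, Mitf and Rpe65). In the 250 bases before the annotated start, the longest run common to Tyr, Tyrp1 and Dct was GTCATGTGCT, 10 bases long. Each stretch is written 5′ to 3′ on the gene's strand, with that run in capitals.
Tyr: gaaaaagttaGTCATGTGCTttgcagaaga
Tyrp1: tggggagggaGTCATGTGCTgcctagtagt
Dct: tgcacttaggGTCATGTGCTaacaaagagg

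The run began 23 bases before the start of Tyr (chr7:87493516-87493545, minus strand), 48 before that of Tyrp1 (chr4:80834155-80834184, plus strand) and 152 before that of Dct (chr14:118052379-118052408, minus strand). The stretch of Tyrp1 lies inside the gene's annotated span, which has a further start upstream. On either strand, GTCATGTGCT was present in 51 of 32851 windows, 0.155%. The windows of Tyr, Tyrp1 and Dct are among them by construction, since the run was taken from these genes. Its core CATGTG, searched on both strands, was present in 12.3% of windows, and the 10-base run contains that core. Dct held a further core, and Rpe65 and Oca2 each held 1 with different flanks, shown with the core in capitals as it reads on the gene's strand.
Rpe65: atggcaggccCACATGgctctttttt
Oca2: gagcttgctaCACATGgctggaattt

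These began 239 bases before the start of Rpe65 (chr3:159598932-159598957, plus strand) and 186 before that of Oca2 (chr7:56239563-56239588, plus strand). Both starts lie inside the annotated span of the gene, which begins further upstream, at 159599075 for Rpe65 and 56239593 for Oca2. None of the 3 Mitf windows held the core. A match of letters is a description and not a measured binding site.

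Opn1sw, the short-wavelength cone opsin, averaged 1540 FPKM over the controls and 1470 FPKM over the triple-deficient libraries. Ankrd33b, taken here to be Panky-like, was at 35.4, 32.6 and 33.4 FPKM in controls and 1.81, 1.31 and 1.39 FPKM in triple-deficient libraries (log2 change -3.80, limma adjusted p = 4.56e-07). Ankrd33 (Panky) was at 105, 104 and 110 FPKM in controls and 56.6, 59.6 and 50.5 FPKM in triple-deficient libraries, so that transcript counted for the gene remained in the libraries labelled Panky-/- at a ratio of 0.522 (log2 change -0.93, limma adjusted p = 0.00274). The tables give a single value for each gene and cannot check which part of Ankrd33 or Nrl is deleted. Nrl was at 49.2, 38.3 and 45.0 FPKM in controls and 52.6, 51.3 and 53.7 FPKM in triple-deficient libraries. Its groups did not overlap (log2 change 0.25, limma adjusted p = 0.861). By the steps of low values, the libraries held about 18.2 to 27.2 M fragments. Control 1 stood apart in lens transcripts, with a summed level of 18.7 FPKM over 10 lens genes against 4.3 to 5.75 FPKM in the other libraries. Triple-deficient 3 stood apart in base composition, where the Spearman correlation over genes between GC content and the library's distance from the mean was -0.59 (other libraries 0.06 to 0.30).

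The 10 genes differed widely in level, and only Dct and Ttr were above 5 FPKM in any library. Averaged over the 6 libraries, Dct was at 23.3 FPKM and Ttr at 12.3 FPKM. Pmel (2.72 FPKM), Tyrp1 (2.71 FPKM) and Rpe65 (2.46 FPKM) followed, then Mitf (1.38 FPKM) and Tyr (0.539 FPKM). Mlana (0.199 FPKM), Slc45a2 (0.181 FPKM) and Oca2 (0.121 FPKM) came last. The order among Pmel, Tyrp1 and Rpe65, and among Mlana, Slc45a2 and Oca2, lies within their spread between libraries. FPKM is a level per length, so these levels can be set side by side.

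Between genotypes, 5 of the 10 genes (Tyr, Tyrp1, Pmel, Oca2 and Ttr) were lower in every triple-deficient library than in every control. Over all 14325 genes tested, 5.64% were ordered that way, and 4 of these 5 genes (all but Oca2) were among those tested. The other 5 (Dct, Mlana, Slc45a2, Mitf and Rpe65) overlapped between the groups. None was higher in every triple-deficient library than in every control, an order held by 4.86% of all genes tested. With a filter at a mean of 0.5 FPKM, 7 of the 10 genes entered the limma fit of log2(FPKM + 1), and 0 passed the adjusted threshold of 0.05, where 4 of 14325 genes, 0.0279%, did. At an unadjusted p below 0.05 there were 3 (Tyrp1, Pmel and Ttr), against 5.09% of all genes tested. Their median log2 change was -0.24, against 0.003 over all genes tested. Since Tyr entered only through its control values (mean 0.669 against 0.408 FPKM), no reading is made of that median. For the same reason none is made of the 4 genes set beside the share of 5.64%.

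**Figure D1:**
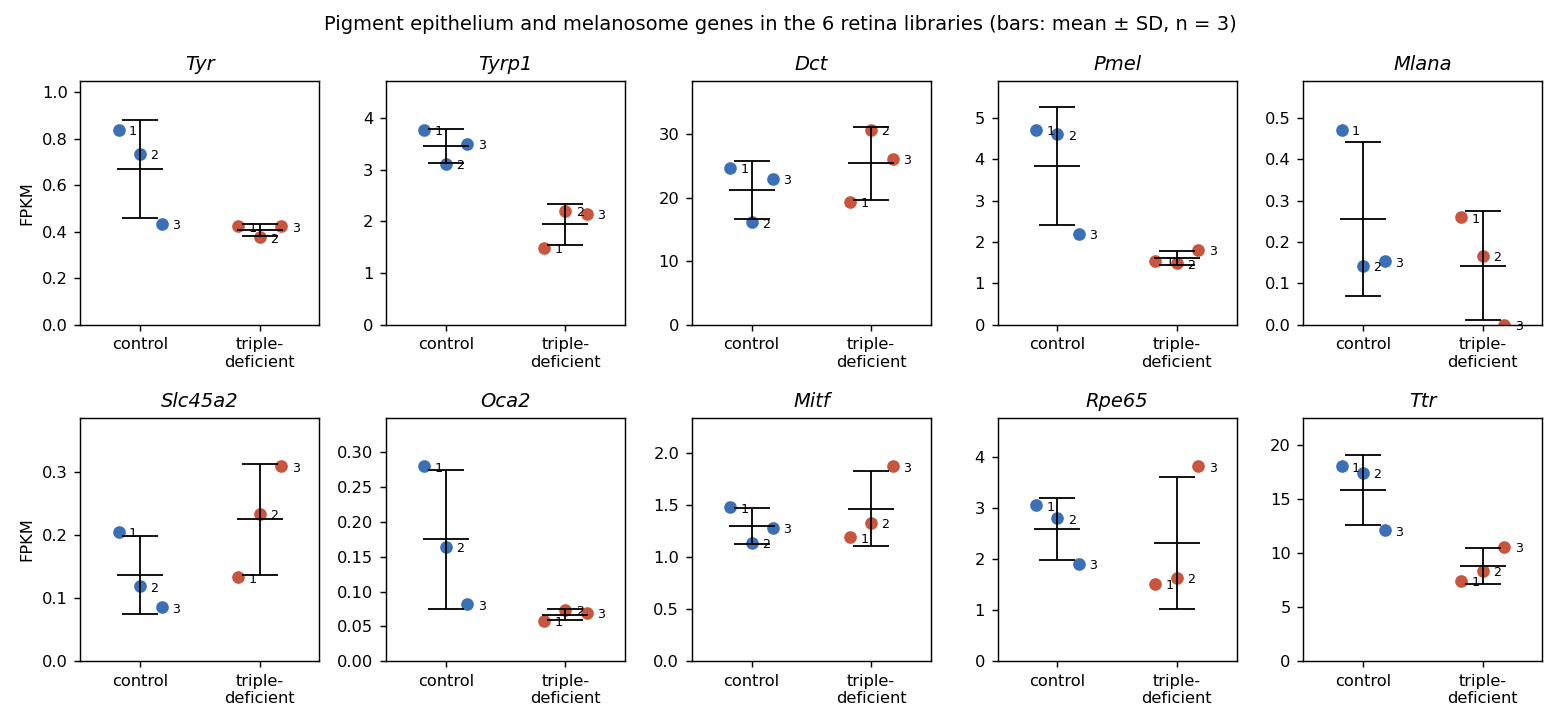
FPKM (linear axes from 0, a scale of its own for each gene) of the 10 genes in 3 control (blue) and 3 triple-deficient (red) libraries, numbered by replicate, with mean and SD of each group. Tyr, Tyrp1, Pmel, Oca2 and Ttr show no overlap between groups, and control 3 lies next to the triple-deficient libraries for each of these but Tyrp1.

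The melanin enzymes did not share 1 pattern. Tyr encodes tyrosinase, the rate-limiting enzyme of melanin synthesis (chromosome 7, 87424771 to 87493512). It measured 0.839, 0.735 and 0.435 FPKM over controls 1, 2 and 3, against 0.424, 0.376 and 0.423 FPKM over triple-deficient libraries 1, 2 and 3. Controls 1 and 2 were high, while control 3 lay 0.435 against 0.424 FPKM beside the nearest triple-deficient library. The log2 change was -0.24 (95% interval -0.50 to 0.02).

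Tyrp1, tyrosinase-related protein 1, acts later in the pathway to brown and black eumelanin (chromosome 4, 80834123 to 80851736). It measured 3.77, 3.11 and 3.50 FPKM over the controls, against 1.49, 2.2 and 2.15 FPKM over the triple-deficient libraries. Here the 3 controls lay close together and all 3 triple-deficient libraries lay well below them. The control mean was 3.46 ± 0.333 FPKM and the triple-deficient mean 1.95 ± 0.399 FPKM (SD, n = 3), a ratio of 0.563. The log2 change was -0.60 (95% interval -0.87 to -0.34).

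Dct, dopachrome tautomerase, converts the intermediate between the steps of the other two enzymes (chromosome 14, 118012790 to 118052246). It measured 24.7, 16.1 and 23.0 FPKM over the controls, against 19.4, 30.7 and 26.1 FPKM over the triple-deficient libraries. The groups overlapped, the lowest value being control 2 and the highest triple-deficient 2. The log2 change was 0.24 (95% interval -0.18 to 0.67). The ratio of Dct to Tyrp1 in FPKM was 6.54, 5.16 and 6.57 in controls and 13, 13.9 and 12.1 in triple-deficient libraries. The groups did not overlap, but neither did those of Tyrp1 alone, so the ratio is no separate result. How many gene pairs separate the groups in this way was not measured. The ratio of Dct to Tyr did overlap, at 21.9 to 52.9 and 45.8 to 81.5.

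Among the melanosome proteins, Pmel was the most abundant. It forms the amyloid fibrils on which melanin is laid down (chromosome 10, 128695888 to 128720238). It measured 4.71, 4.60 and 2.2 FPKM over the controls, against 1.54, 1.48 and 1.81 FPKM over the triple-deficient libraries. Controls 1 and 2 were again high, and control 3 lay nearer to the triple-deficient libraries than to the other controls. The means were 3.84 ± 1.42 and 1.61 ± 0.173 FPKM (SD, n = 3), a ratio of 0.419 and a log2 change of -0.84 (95% interval -1.32 to -0.37). Pmel passed limma's threshold only with control 3 left out (log2 change -1.12, adjusted p = 0.0181). Pmel overlaps Cdk2 and Dgka on the opposite strand. These were at 1.72 to 2.47 and 2.68 to 3.82 FPKM, and whether strand was used in counting is not given, so reads of the overlap cannot be assigned with certainty.

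Oca2, Slc45a2 and Mlana were below the filter and rest on few fragments. Oca2 and Slc45a2 are transporter-like membrane proteins that set the ion balance of the melanosome, and Mlana helps Pmel to mature. For a given gene and library, each fragment adds the same FPKM step, so the number of fragments can be read where all 6 values are whole multiples of a step, here within 0.02 of a whole number. That held for 8 of the 10 genes, all but Tyrp1 and Mitf. The step taken is the largest that holds for all 6 values, so the numbers printed are the smallest whole numbers in those ratios, and the true ones could be a common multiple of them, with narrower relative intervals.

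Oca2 had 20, 13 and 6 fragments in controls and 5, 5 and 4 in triple-deficient libraries. Per 10 M fragments, control 1 was at 8.86 (95% exact Poisson interval 5.41 to 13.7), above the interval of triple-deficient 1 (1.84, 0.60 to 4.28). Its interval overlapped those of triple-deficient 2 (2.35, 0.76 to 5.49) and triple-deficient 3 (2.2, 0.60 to 5.62). Control 3, at 2.59 (0.95 to 5.64), was not distinguishable from the triple-deficient libraries at this depth.

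Slc45a2 had 14, 9 and 6 fragments in controls and 11, 15 and 17 in triple-deficient libraries. Its groups overlapped, with a ratio of means of 1.65, where that of Oca2 was 0.383. Mlana had 3, 1 and 1 against 2, 1 and 0 fragments, 8 in all, which is too few to show a difference. These intervals cover counting error only, and the steps give no check that a fragment belongs to the gene.

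**Figure D2:**
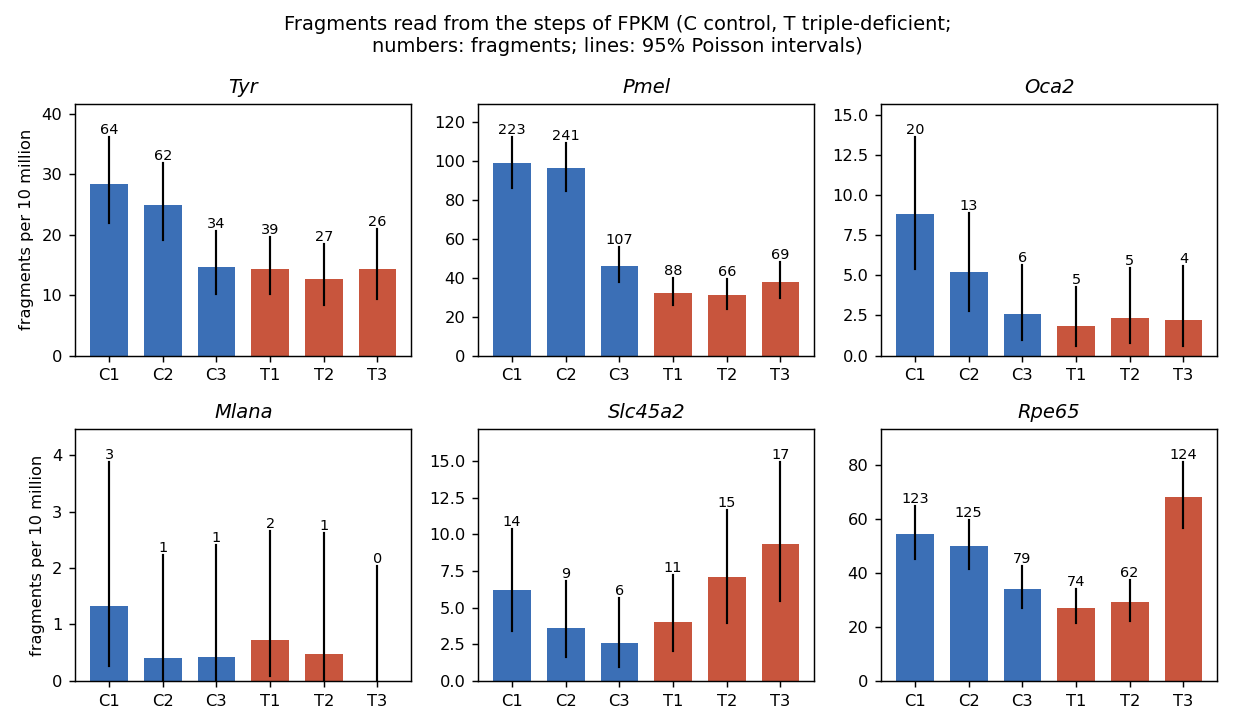
Fragments per 10 M (linear axis from 0) for 6 genes in each control (C1 to C3) and triple-deficient (T1 to T3) library, with the number of fragments above each bar and 95% exact Poisson intervals as lines. Pmel goes from 223 and 241 fragments in controls 1 and 2 to 107 in control 3 and 66 to 88 in the triple-deficient libraries, while Rpe65 is high again in triple-deficient 3 with 124.

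The spread between libraries can be set beside counting error through the fragment numbers. The variance between libraries of a group, divided by that expected from counting alone, was 25.5 for Pmel, 17.3 for Ttr, 5.13 for Tyr and 4.1 for Oca2 in the controls. In the triple-deficient libraries the same ratio was 0.77 for Pmel, 0.13 for Tyr and 0.08 for Oca2, and 7.44 for Ttr. Each ratio rests on 3 libraries, the 5, 5 and 4 fragments of Oca2 are too few to show an excess, and the difference between the groups was not tested. Dct varied in both groups, at 53.6 and 70.3. For Slc45a2 the ratios were 1.93 and 2.46, and for Mlana 0.91 and 0.66. If the true fragment numbers are a common multiple of those printed, each ratio grows by that factor. The ratios are thus lower bounds, and a low one need not mean that counting error explains the spread.

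Mitf, the regulator, overlapped between the groups (chromosome 6, 97807002 to 98021360). It measured 1.48, 1.14 and 1.28 FPKM over the controls, against 1.19, 1.33 and 1.87 FPKM over the triple-deficient libraries. The highest value was in triple-deficient 3 and the lowest in control 2. The log2 change was 0.09 (95% interval -0.18 to 0.36). Mitf is transcribed from several promoters, and 1 value per gene does not show which isoform was present.

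Rpe65, the isomerase that regenerates 11-cis retinol, marks the pigment epithelium and not melanocytes (chromosome 3, 159599075 to 159625307). It measured 3.05, 2.80 and 1.91 FPKM over the controls, against 1.52, 1.63 and 3.81 FPKM over the triple-deficient libraries. Triple-deficient 3 was the highest of all 6 libraries and the other two triple-deficient libraries the lowest. The log2 change was -0.16 (95% interval -0.72 to 0.39) and was -0.46 without triple-deficient 3 (limma adjusted p = 0.912). By the fragment numbers printed, its variance in the triple-deficient group was 27.3 times that of counting. The ratio of Rpe65 to Pmel was 0.648, 0.609 and 0.867 in controls and 0.988, 1.10 and 2.11 in triple-deficient libraries. The groups did not overlap, but neither did those of Pmel alone, so the ratio is no separate result. Triple-deficient 3 was high in Rpe65 but not in Pmel.

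Ttr, transthyretin, carries thyroxine and, with its partner, retinol, and is made by pigment epithelium and by choroid plexus. It measured 18, 17.4 and 12.1 FPKM over the controls, against 7.42, 8.37 and 10.6 FPKM over the triple-deficient libraries. Controls 1 and 2 were the highest, and control 3 and triple-deficient 3 were the nearest of the 2 groups. The means were 15.8 ± 3.26 and 8.81 ± 1.66 FPKM (SD, n = 3), a ratio of 0.557 and a log2 change of -0.77 (95% interval -1.14 to -0.40). Ttr did not pass the adjusted threshold in the main analysis or in any of the 18 alternatives.

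Control 1 was the highest library for 6 genes (Tyr, Tyrp1, Pmel, Mlana, Oca2 and Ttr), and triple-deficient 3 for 3 (Slc45a2, Mitf and Rpe65). Control 1 held 28.8% and control 2 28.2% of the FPKM of Pmel summed over the 6 libraries, and 26% and 22.7% of that of Tyr. For Rpe65, triple-deficient 3 held 25.9% and control 1 20.7%.

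**Figure D3:**
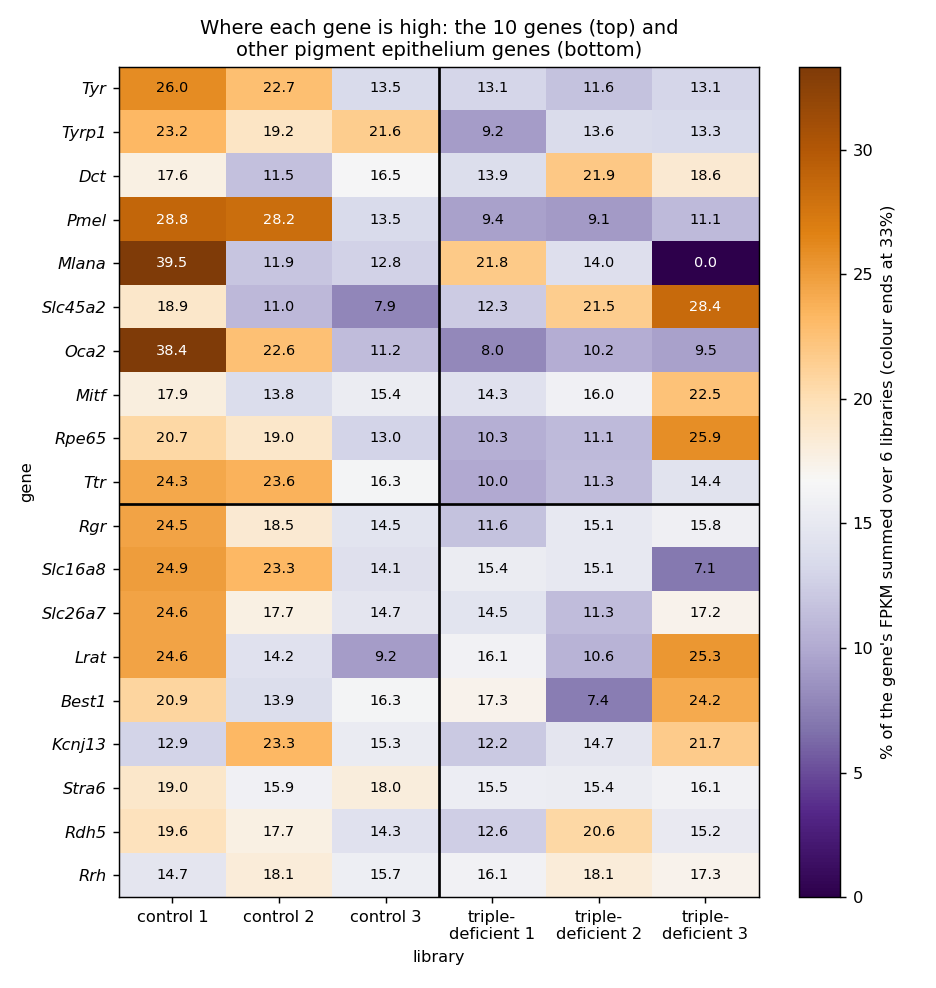
Each library's percentage of a gene's FPKM summed over the 6 libraries, for the 10 genes and 9 other genes of the pigment epithelium; with no difference each cell would hold a like share. Tyr, Pmel, Oca2 and Ttr are highest in controls 1 and 2, while Rpe65, Lrat and Best1 have their highest share in triple-deficient 3 (25.9%, 25.3% and 24.2%). Rpe65 is also high in controls 1 and 2 (20.7% and 19.0%), and Slc16a8, Rgr and Slc26a7 have their highest share in control 1 (24.9%, 24.5% and 24.6%), with 7.1%, 15.8% and 17.2% in triple-deficient 3.

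Over the 6 libraries, and among the 89 other list genes past the filter, the genes nearest to Pmel in log2(FPKM + 1) were Tyr (Pearson r 0.98), Ttr (0.96) and Plvap (0.88), a gene of fenestrated vessels. Nearest to Ttr were Pmel (0.96), Tyr (0.90) and Rgr (0.87), an opsin of pigment epithelium and Müller glia. Nearest to Tyrp1 were Ttr (0.87), Bloc1s1 (0.86) and Ednrb (0.83). Nearest to Rpe65 were Ezr (0.90), Clic6 (0.84) and Pdgfra (0.75), and to Dct Pax6 (0.84), Bfsp1 (0.67) and Kcne2 (0.66). These values are a description over 6 libraries that share 2 genotypes, and with so few libraries high values arise easily.

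The rest of the pathway was read from lists chosen by function. Of 19 tested genes of a further pigment epithelium list, 0 passed limma's adjusted threshold and 3 had an unadjusted p below 0.05. Over all genes tested, 5.09% had such an unadjusted p. The median log2 change was -0.10, and 15 of 19 changes were below 0, where 48.2% of all genes tested were. The most abundant were Cst3, a secreted protease inhibitor, at 339 ± 16.6 and 289 ± 37.9 FPKM, Rlbp1, the retinal-binding protein shared with Müller glia, at 244 ± 3.63 and 224 ± 20.6 FPKM, and Krt18, a keratin, at 59.2 ± 6.31 and 57.7 ± 2.12 FPKM (SD, n = 3). The smallest p-values were those of Trf, transferrin (log2 change -0.30, limma adjusted p = 0.870), and Cst3 (-0.24, limma adjusted p = 0.921). Without triple-deficient 3 these changes were -0.18 and -0.13. These abundant genes are not restricted to pigment epithelium.

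Apart from Rrh, the defining markers of the pigment epithelium were present at low levels, and the markers differed among themselves. Slc16a8, its lactate transporter, measured 2.33, 2.18 and 1.32 FPKM over the controls, against 1.44, 1.42 and 0.667 FPKM over the triple-deficient libraries, lowest in triple-deficient 3, where Rpe65 was highest. Its log2 change was -0.44 (95% interval -0.86 to -0.02, limma adjusted p = 0.943). Lrat, which esterifies retinol for Rpe65, measured 0.372, 0.214 and 0.139 FPKM over the controls, against 0.243, 0.160 and 0.382 FPKM over the triple-deficient libraries, highest in triple-deficient 3 and control 1, while Rpe65 was also high in control 2. Best1, a chloride channel, had 15, 11 and 12 fragments in controls and 15, 5 and 14 in triple-deficient libraries. Stra6, the retinol receptor, averaged 2.99 and 2.66 FPKM, and Rrh, peropsin, 14.0 and 14.9 FPKM. The summed level of 8 defining markers (Rpe65, Best1, Lrat, Rdh5, Rrh, Slc16a8, Kcnj13 and Stra6) was 23.1 to 27.5 FPKM in controls and 22.5 to 26.1 FPKM in triple-deficient libraries. Rrh made up 49.8% to 61.9% of that sum in each library, so the sum does not stand for the other markers.

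**Figure D4:**
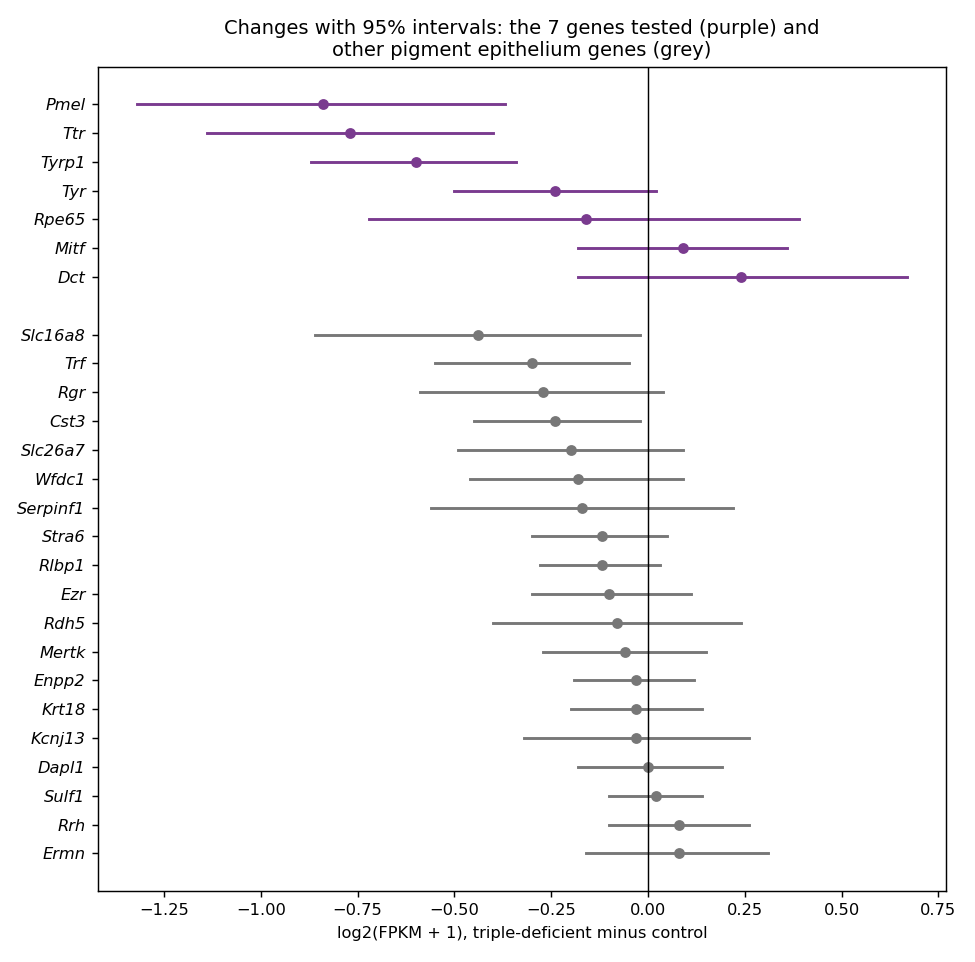
Log2(FPKM + 1) change, triple-deficient minus control, with 95% limma intervals, for the 7 genes past the filter (purple) and 19 other genes of the pigment epithelium list (grey). Pmel (-0.84), Ttr (-0.77) and Tyrp1 (-0.60) have intervals below 0, as do Slc16a8 (-0.44), Trf (-0.30) and Cst3 (-0.24) among the grey genes, and Mitf and Dct have intervals that span 0. None of these genes passed the adjusted threshold.

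The other melanosome genes showed no call either. Of 11 tested genes of transport and pigment handling, 0 passed and 1 had an unadjusted p below 0.05 (median log2 change 0.03). Such an unadjusted p was found for 5.09% of all genes tested. Rab27a, which tethers melanosomes to actin, measured 4.73, 5.33 and 5.27 FPKM over the controls, against 4.45, 4.37 and 4.34 FPKM over the triple-deficient libraries (log2 change -0.18, limma adjusted p = 0.896). Rab38, of melanosome biogenesis, averaged 0.739 and 0.537 FPKM (limma adjusted p = 0.946). Trpm1, which retinal bipolar cells also use, was at 94.1 to 109 FPKM in controls and 104 to 109 FPKM in triple-deficient libraries. Myo5a, a motor, averaged 27.7 and 28.9 FPKM, and Mreg, a regulator of melanosome transfer, averaged 14.7 FPKM in both groups.

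All 16 genes of the sorting complexes that build melanosomes and other lysosome-related organelles were tested. None passed, none had an unadjusted p below 0.05, and the median was -0.03. Bloc1s1, Ap3d1 and Bloc1s2, the most abundant, had changes of -0.08, 0.01 and -0.08, and Hps3 had 0.14 (limma adjusted p = 0.946). Bloc1s1 overlaps Rdh5 on the same strand. These complexes serve most cell types.

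Of 7 tested relatives and partners of Mitf, 0 passed and 0 had an unadjusted p below 0.05, with a median log2 change of 0.04. Otx2, a factor of pigment epithelium and photoreceptors, averaged 228 and 220 FPKM, Pax6 92.5 and 94.9 FPKM, Usf1 30.1 and 29.9 FPKM, and Tfe3, a close relative of Mitf, 20.5 and 21.7 FPKM. Tfec, the relative most restricted to pigment epithelium, was listed at 0 in all 6 libraries.

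Markers of melanocytes and of tissues next to the retina were measured in the same libraries. Of the defining melanocyte markers, Pax3 was listed at 0 in every library and Sox10 had 8, 7 and 2 fragments in controls and 7, 0 and 7 in triple-deficient libraries. Kit, which retinal neurons also express, was at 5.28 to 5.77 FPKM. The receptor gene Erbb3 averaged 0.168 and 0.133 FPKM. Ednrb, the endothelin receptor B, measured 2.29, 2.26 and 2.54 FPKM over the controls, against 2.06, 2.14 and 2.17 FPKM over the triple-deficient libraries, with no overlap (log2 change -0.11, 95% interval -0.28 to 0.06, limma adjusted p = 0.946). The summed level of the 5 melanocyte genes was 7.94 to 8.44 FPKM in controls and 7.73 to 8.02 FPKM in triple-deficient libraries. Almost all of that sum was Kit and Ednrb, so it says little of Sox10, Pax3 and Erbb3. Of the 2 tested, Kit and Ednrb, 0 passed and 0 had an unadjusted p below 0.05.

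The summed level of Tyr, Tyrp1, Pmel, Mlana, Slc45a2 and Oca2, all melanin and melanosome genes but Dct, was 10.3, 8.87 and 6.46 FPKM in controls and 3.91, 4.54 and 4.76 FPKM in triple-deficient libraries. Dct was left out of this sum after its values were seen. Most of the sum was Tyrp1 and Pmel, whose groups did not overlap either, so it is no separate result. Slc45a2, which is part of the sum, went the other way, with a ratio of means of 1.65. With Dct the sum was 24.9 to 35.0 FPKM in controls and 23.3 to 35.2 FPKM in triple-deficient libraries, and the groups overlapped.

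Lens was the tissue whose transcripts set 1 library apart. Cryaa, a lens crystallin, had 105 fragments in control 1 and 0 to 3 in each other library, while the most abundant of the list, Crybb3 and Bfsp2, were in all libraries at 1.77 to 2.83 and 1.23 to 1.73 FPKM. Control 1 was also the highest library for Tyr, Tyrp1, Pmel, Oca2 and Ttr. Control 2 had 1 fragment of Cryaa, and its shares of the summed FPKM beside those of control 1 were 28.2% and 28.8% for Pmel, 23.6% and 24.3% for Ttr, 22.7% and 26% for Tyr, 19.2% and 23.2% for Tyrp1, and 22.6% and 38.4% for Oca2. Without control 1, the log2 changes were -0.70 for Pmel, -0.68 for Ttr and -0.56 for Tyrp1. Without both control 1 and triple-deficient 3 they were -0.75, -0.81 and -0.61, and with the GC trend removed -0.83, -0.79 and -0.62. None of these passed the adjusted threshold.

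Ciliary epithelium and choroid plexus genes, which bear on Ttr, summed to 257 to 260 FPKM in controls and 280 to 305 FPKM in triple-deficient libraries. Almost all of that sum was Kcne2, a potassium channel subunit, at 233 to 235 and 255 to 283 FPKM. The sum thus says little of the other genes of the list. Of the 8 tested, 5 had a log2 change below 0, where 48.2% of all genes tested did. Between the groups, 1 gene was lower in every triple-deficient library than in every control, and 1, Kcne2, was higher. Slc4a5 was at 10.3 to 11.1 FPKM in all libraries. Connective tissue genes, led by Pdgfra and Col1a2, summed to 15.3 to 16.6 and 14.9 to 16.7 FPKM. Endothelial and mural genes, led by Kdr and Rgs5, summed to 161 to 172 and 166 to 171 FPKM. Plvap, of the same list, measured 3.01, 2.82 and 2.52 FPKM over the controls, against 2.46, 2.08 and 2.09 FPKM over the triple-deficient libraries, with no overlap (log2 change -0.24, 95% interval -0.44 to -0.04, limma adjusted p = 0.870). It did not pass the adjusted threshold and was chosen for its likeness to Pmel. Blood genes, led by Hba-a1 and Alas2, summed to 27.7 to 36.6 and 22.3 to 38.8 FPKM, and eye muscle genes, led by Mylpf and Acta1, to 4.86 to 5.67 and 4.86 to 5.17 FPKM. The summed levels of the groups overlapped for each of these 4 lists. The part of tissue left on the retina in the differences of Tyr, Tyrp1, Pmel, Oca2 and Ttr was not tested.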

How the data were processed

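Each of the 6 libraries (3 control, 3 triple-deficient) has 1 table of FPKM deposited by the authors. Per the submitters' processing notes, which give no roles, the tools were Cufflinks 2.2.1, Cuffdiff, Bowtie2 2.3.5.1 and TopHat2 2.1.1, on mm10. The sources used here name no annotation, strand setting or scaling.

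FPKM values were used as deposited. The limma package (3.58.1, R 4.3.3) was fitted to log2(FPKM + 1) with its trend option for the 14325 genes averaging 0.5 FPKM or more. Tests were two-sided, with Benjamini-Hochberg adjustment over every gene fitted and a threshold of 0.05. The fit was also run on simulated data with added changes and normal noise of the fitted variances. Those data held no library that stood apart, so they cannot show how well the fit serves these libraries. The log2(FPKM + 1) scale understates changes of low genes. The labels do not say that libraries of a group are separate animals, so p-values measure only the spread between these samples. Relative depth was estimated from pairs of values below 0.3 FPKM, of which 61.1% to 63.9% had a ratio of integers no larger than 6 (log2 tolerance 0.005). Total depth came from GENCODE M21 genes with 1 transcript, and GC content from the longest transcripts. No count model was fitted. Fragments were read as whole multiples of the largest step between 0.8 and 4 times that expected from the longest transcript. Promoter windows on the chromosome of Ttr were not used here.

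The genes and lists were chosen with earlier results of these data known, and 2 genes of the lists are not reported here. All 10 genes are named. Of each other list of the pathway the 3 most abundant genes and the 2 with the smallest p are named, of each neighbouring tissue the 2 most abundant, and for 5 genes the 3 most alike. Slc16a8, Lrat, Best1, Stra6, Rrh, Rdh5, Kcnj13, Slc26a7, Sox10, Pax3, Tfec, Cryaa and Opn1sw are outside that rule and were picked with their values in view. Alternatives changed the pseudocount, filter, scaling, variance model, replicate block and libraries used. Removing a GC trend, and leaving out both libraries that stood apart, were added after seeing the data.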

Additional observations from a re-analysis of the deposited data

How the results depend on the processing

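Over all genes, 4 passed in the main fit, 2 with no filter, 2 with robust shrinkage, 3 to 11 with 1 library left out, and 9 without both control 1 and triple-deficient 3. The count was 8 without control 3, 11 without triple-deficient 1 and 11 without triple-deficient 3. The causes were not tested. No gene of the 5 other pathway lists passed in any of the 18 alternatives. Of the 10 genes, only Pmel passed in any, without control 3. Over the alternatives, log2 changes ran from -1.13 to -0.70 for Pmel, -0.95 to -0.67 for Ttr, -0.81 to -0.49 for Tyrp1, -0.56 to -0.22 for Tyr, -0.46 to 0.003 for Rpe65, 0.063 to 0.42 for Dct and -0.025 to 0.17 for Mitf. A pseudocount of 0.1 gave the values of -0.56 for Tyr and -0.81 for Tyrp1. Tyr fell below the filter without control 1, without control 2, without both libraries that stood apart and at a filter of 1 FPKM.

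Some genes with changes near 0 turned sign. Mreg was at 0.003 with quantile normalization, 0.013 with array weights and 0.05 without both libraries that stood apart. With the GC trend removed, Usf1 was at 0.023, Krt18 at 0.002 and Kit at -0.004. With 1 library left out, changes ran from 0 to 0.094 for Myo5a, -0.051 to 0.032 for Mreg, -0.029 to 0.03 for Ap3d1, -0.023 to 0.002 for Usf1, -0.097 to 0.049 for Krt18 and -0.02 to 0.035 for Kit.

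Deviations from the group mean had correlations of 0.022, 0.114 and 0.067 for same-numbered libraries, and of -0.195 to 0.12 for differently numbered ones. So few values cannot show whether the numbers mark litters. The numbers were not taken as pairs because no label ties a replicate number to a litter. With the replicate number as a block, 4 genes passed, none of them among the 10. Depth limits Mlana, Oca2 and Slc45a2.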
